A study of Mus musculus with 6 samples.

Results

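The interleukin-1 and interleukin-18 receptor family was measured as RNA in mouse B cells activated in culture, and 9 of the 46316 genes in the deposited count table make it up. They are the IL-18 receptor chains Il18rap and Il18r1, the IL-1 receptors Il1r1 and Il1r2, the accessory chain Il1rap, the IL-33 receptor Il1rl1, the inhibitory receptor Sigirr, the cytokine Il18 and its binding protein Il18bp. Naive B cells from spleens of WT mice received anti-CD40 antibody at 500 ng/mL, in place of T cell help, together with IL-4 at 5 ng/mL. In 3 samples 0.8 nM bryostatin 1, an activator of protein kinase C, was also present (IL-4 + bryostatin 1), and 3 samples were left without it (IL-4). RNA was taken on day 2. The sources used here do not give the strain, age or sex of the mice behind these libraries, nor whether each sample had its own mouse or culture. The p-values therefore speak only of the scatter between libraries, which may be technical. The family was chosen by its biology with a measured value in view, the rise of Il18rap in this comparison, and Il18rap is therefore described with no test. The other 8 genes belong to the same family or bind to it. Each gene was represented by its transcript row with the highest mean count.

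Receptors of this family carry immunoglobulin domains outside the cell and, in the signalling chains, a Toll/IL-1 receptor domain inside it. A ligand-binding chain recruits an accessory chain, and the joined pair engages the adaptor MyD88, IRAK kinases and TRAF6. Decoy receptors, binding proteins and SIGIRR hold the pathway back. IL-18 binds the chain encoded by Il18r1 and signals once IL-18RAP joins it, a pathway best known for interferon-γ production by T and natural killer cells acting with IL-12. Activated B cells can also carry the IL-18 receptor.

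Il18rap, Il18r1 and Il1r2 lie in a single receptor cluster on chromosome 1 and had the highest ratios between the conditions in the family. The sequences ahead of their transcription starts are shown here because these RNAs were higher together. They come from RefSeq's GRCm38.p6 annotation, are all on the plus strand, and are trimmed to the part of the 250 bases upstream of an annotated start that lies outside exons. Capitals mark E-boxes of the letters CACGTG, the only form of E-box that was searched for here.
Il18rap, chr1:40515112-40515361: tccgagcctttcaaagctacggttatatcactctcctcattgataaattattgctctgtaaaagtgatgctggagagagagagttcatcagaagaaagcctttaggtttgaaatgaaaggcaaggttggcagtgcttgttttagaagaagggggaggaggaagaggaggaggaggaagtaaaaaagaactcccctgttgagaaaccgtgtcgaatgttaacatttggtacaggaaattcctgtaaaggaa
Il18r1, chr1:40465416-40465551: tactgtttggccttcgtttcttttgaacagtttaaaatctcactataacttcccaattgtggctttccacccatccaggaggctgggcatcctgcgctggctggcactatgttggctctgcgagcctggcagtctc
Il1r2, chr1:40085852-40085984, ahead of an inner start of this gene: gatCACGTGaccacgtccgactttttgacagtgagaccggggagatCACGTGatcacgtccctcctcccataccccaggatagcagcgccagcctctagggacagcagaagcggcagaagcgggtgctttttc
Of the family, 8 genes had such windows, 12 in number, and Sigirr had none in the sequence table. Both strands of the 12 windows were searched for AP-1 (TGANTCA), CRE (TGACGTCA), GAS (TTCNNNGAA), NF-κB (GGG and TTCC with 3 bases between them), RUNX (TGTGGT) and E-box motifs, a set chosen after the sequences had been seen. The Il18rap window held none of these letters. The Il1r2 window held the E-boxes printed above, starting 238 and 195 bases ahead of the start, and a GAS motif that runs past the end of the printed stretch. At least 2 E-boxes were found in 0.429% of the 32841 mouse windows of this length. Il18r1 had no match in its first windows, where the printed stretch lies, and 2 GAS motifs in the window of its last start. At least 2 GAS motifs were found in 0.317% of all windows. Among the other members, Il1r1 had an NF-κB motif, Il1rl1 and Il18 each had a RUNX motif, and Il1rap and Il18bp had no match. GAS motifs were found in 7.02%, AP-1 in 6.75%, E-boxes in 6.02%, NF-κB motifs in 4.65%, RUNX motifs in 14.0% and CRE in 1.55% of all windows. A match describes letters in a window and shows no binding.

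Levels are given as CPM, counts per 1000000 of library size after DEGES scaling, which sets the libraries to a common size from genes that do not differ. With 1 row per gene, the libraries held 19959971 to 24896427 counts with bryostatin 1 and 20564293 to 22219354 counts without it. Of 13863 genes with enough counts, 58.1% were called at an adjusted p under 0.05 in edgeR's quasi-likelihood test with Benjamini-Hochberg adjustment, 30.1% higher and 28.0% lower with bryostatin 1. The median log2 fold change of all genes was 0.00, and the common biological coefficient of variation was 3.88%. Of the 9 family genes, 7 passed the filter on low counts, and Il1r1 and Il1rl1 did not. Leaving Il18rap aside, 6 were tested: Il18r1, Il1r2 and Sigirr were higher, and Il1rap, Il18 and Il18bp were not called. Their median log2 fold change was 0.46. Among these 6, the samples of the conditions did not overlap in 4 genes, beside 63.5% of all genes tested.

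**Figure D1:**
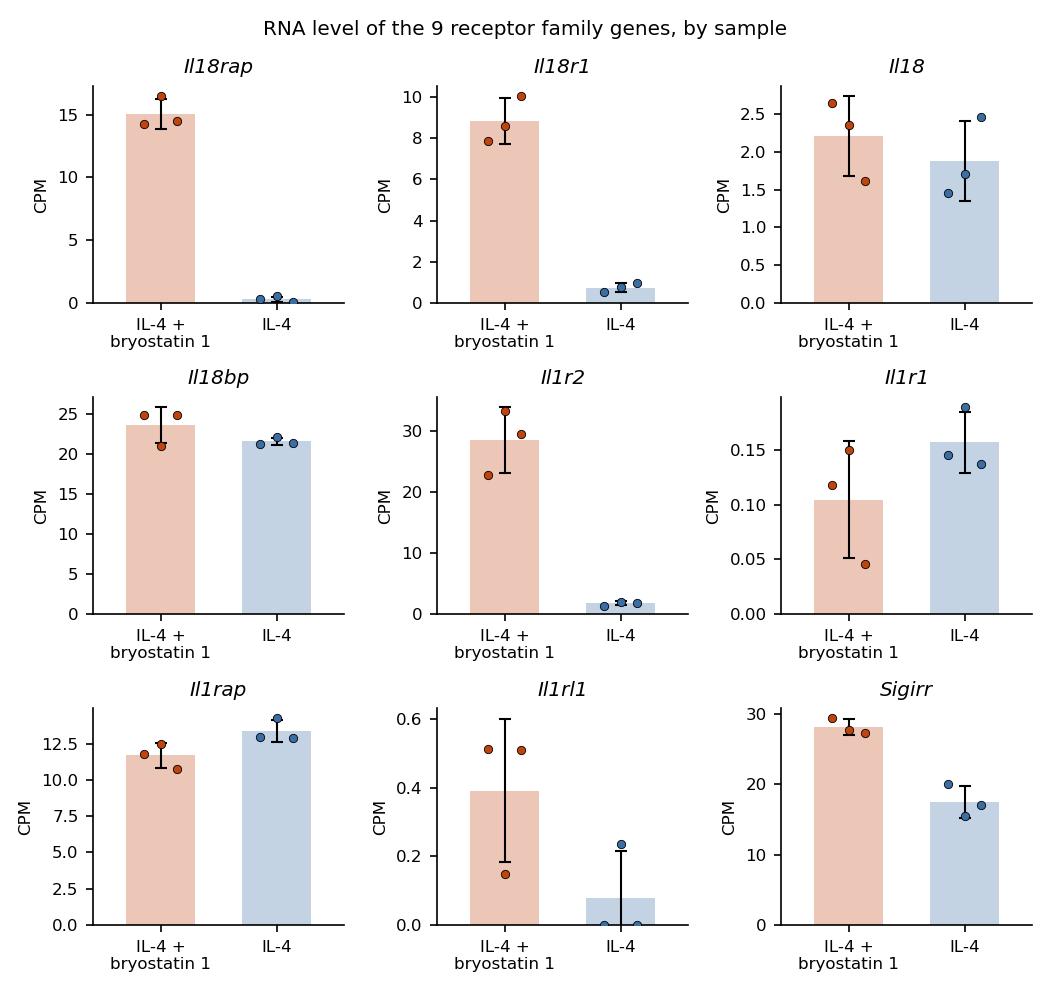
RNA level in CPM of the 9 family genes, with a point for each sample, bars at the mean and error bars of 1 SD (n = 3), and an axis of its own for each gene. The samples with bryostatin 1 lie above all IL-4 samples for Il18rap, Il18r1, Il1r2 and Sigirr and below them for Il1rap, while Il1r1 and Il1rl1 stay under 1 CPM in every sample.

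Both chains of the IL-18 receptor were readily counted with bryostatin 1. With IL-4 alone Il18rap was near the limit of counting, and Il18r1 was low but reached the level of the filter on low counts in every sample. Il18rap, the accessory chain that the receptor needs for signalling, had 360, 329 and 313 counts with IL-4 + bryostatin 1, against 6, 11 and 2 counts with IL-4. These counts are 14.2, 16.4 and 14.5 CPM with IL-4 + bryostatin 1 and 0.292, 0.521 and 0.0913 CPM with IL-4. The bryostatin 1 samples were close to each other and far above the IL-4 samples, which rested on so few reads that their own order means little. The log2 fold change of Il18rap was 5.62 (standard error 0.21), a 49.3-fold difference, and 20 of all tested genes had a larger one. In only 1 IL-4 sample did Il18rap reach the level of the filter, so it passed through the bryostatin 1 samples. Its 5 transcript rows gave ratios from 48.8 to 53.3.

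Il18r1, the chain that binds IL-18, had 199, 172 and 217 counts with IL-4 + bryostatin 1, against 11, 16 and 21 counts with IL-4. In CPM these were 7.86, 8.598 and 10.03 with IL-4 + bryostatin 1 and 0.535, 0.757 and 0.959 with IL-4. All samples with bryostatin 1 were far above all samples without it. Il18r1 rose 11.6-fold (log2 fold change 3.54, standard error 0.19, adjusted p = 1.9e-11 in edgeR's quasi-likelihood test). Over 16 other ways of processing the counts its log2 fold change stayed between 3.34 and 3.74, and that of Il18rap between 5.17 and 6.26 over the 15 that kept it. Per kilobase of transcript, the level of Il18rap averaged 3.08 ± 0.250 and that of Il18r1 2.12 ± 0.265 CPM with IL-4 + bryostatin 1, against 0.0616 ± 0.0439 and 0.181 ± 0.0510 CPM with IL-4 (SD, n = 3). By this measure Il18rap lay above Il18r1 in every sample with bryostatin 1 and below it in every IL-4 sample. With IL-4 this order rests on at most 11 counts of Il18rap and 21 of Il18r1 in a sample. A shorter Il18r1 transcript, variant 2, whose protein has 372 residues against 537 for variant 1, was counted at 45.7%, 39.5% and 45.2% of variant 1 with IL-4 + bryostatin 1 and at 36.4%, 25.0% and 47.6% with IL-4. These percentages overlapped (exact permutation test, two-sided, p = 0.4, where 3 samples against 3 allow no p below 0.1). Rows share reads of common exons, so the row does not show that the short form itself was present.

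The genes of the ligand and of its binding protein, Il18 and Il18bp, were not called in either direction. Il18, whose product is made as a precursor and cut by caspase-1, had 67, 47 and 35 counts with IL-4 + bryostatin 1, against 30, 36 and 54 counts with IL-4. Its samples overlapped, at 2.65, 2.35 and 1.62 CPM with bryostatin 1 and 1.46, 1.70 and 2.47 CPM without it. The fitted log2 difference was 0.23 (standard error 0.23), with an adjusted p of 0.396 in edgeR's quasi-likelihood test, and the spread within each condition was as large as this difference. Bco2, a carotenoid-cleaving enzyme whose gene overlaps Il18, had 32, 25 and 30 counts with IL-4 + bryostatin 1 and 18, 15 and 9 counts with IL-4. No source used here says whether the counting was by strand, so reads of the overlap cannot be told apart.

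Il18bp encodes a secreted protein that captures IL-18. It was at 24.9, 21.0 and 24.9 CPM with IL-4 + bryostatin 1 and 21.3, 22.1 and 21.4 CPM with IL-4. One bryostatin 1 sample, replicate 2, lay below all IL-4 samples, and the others lay above them. The log2 fold change was 0.13 (standard error 0.07, adjusted p = 0.13 in edgeR's quasi-likelihood test), and without that sample it was 0.20 (adjusted p = 0.0177). These values belong to a predicted transcript, X2, and most of its counts were not in the row of the curated variant 1, which held 58, 23 and 48 counts with IL-4 + bryostatin 1 and 54, 47 and 34 counts with IL-4. On average variant 1 had 7.86% of the X2 counts with bryostatin 1 and 9.88% without it. Across the 5 rows of the gene the ratio of the conditions ran from 0.840 to 1.09, so neither direction was common to all of them.

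Il1r2, a decoy receptor that binds IL-1 and has no signalling domain, was the other strongly higher member. It had 576, 667 and 638 counts with IL-4 + bryostatin 1, against 28, 43 and 40 counts with IL-4. The levels were 22.7, 33.3 and 29.5 CPM with IL-4 + bryostatin 1 and 1.36, 2.04 and 1.83 CPM with IL-4, and the lowest sample with bryostatin 1 was far above the highest without it. Il1r2 rose 16.2-fold (log2 fold change 4.02, standard error 0.16, adjusted p = 3.8e-13 in edgeR's quasi-likelihood test), and its 12 rows gave ratios from 15.5 to 16.4. A noncoding antisense gene that overlaps the start of Il1r2, Gm16894, had 13, 22 and 21 counts with IL-4 + bryostatin 1 and 2, 2 and 5 counts with IL-4. Its counts were a small part of those of Il1r2.

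Il1r1, the signalling receptor for IL-1, was barely detected in either condition. It had 3, 3 and 1 counts with IL-4 + bryostatin 1 and 3, 4 and 3 counts with IL-4, the same in all of its 14 rows. The samples overlapped at or near the floor of 3 counts, which corresponds to 0.118 to 0.150 CPM over the 6 libraries, so no fold is given. Per kilobase of transcript, the decoy Il1r2 exceeded this signalling receptor in all 6 samples.

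Il1rl1, the receptor for IL-33, had 13, 3 and 11 counts with IL-4 + bryostatin 1, against 0, 5 and 0 counts with IL-4. Replicate 2 with bryostatin 1 fell below the IL-4 sample with 5 counts, so the conditions overlapped. Over the summed counts, 27 with bryostatin 1 and 5 without it, the scaled ratio was 5.13 (95% exact interval 1.95 to 17.1, which covers counting error only), and an exact permutation test of the samples gave a two-sided p of 0.2. The filter left this gene out. With no filter on low counts its log2 fold change was 2.27 (adjusted p = 0.00207 in edgeR's quasi-likelihood test), but it was not called with summed rows (adjusted p = 0.0668) or without IL-4 replicate 1 (adjusted p = 0.0677) or 3 (adjusted p = 0.0738). No IL-4 sample reached the level of the filter, so it passes only through the samples with bryostatin 1. The row of the short transcript NM_010743.3, which encodes the soluble form, had 3 counts in each sample with bryostatin 1 and 0 in each sample with IL-4, where 0 allows up to 3 counts.

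Il1rap encodes the accessory chain shared by the receptors for IL-1, IL-33 and IL-36. It stood at 299, 250 and 233 counts with IL-4 + bryostatin 1 and 267, 301 and 282 counts with IL-4. After scaling this was 11.8, 12.5 and 10.8 CPM with IL-4 + bryostatin 1 and 13.0, 14.2 and 12.9 CPM with IL-4, and every sample with bryostatin 1 lay slightly below every sample without it. The log2 fold change was -0.19 (standard error 0.08, adjusted p = 0.0513 in edgeR's quasi-likelihood test), just short of the threshold. Under 7 of the 16 alternatives, TMM scaling among them (adjusted p = 0.0436), it was called lower.

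These Il1rap values belong to variant 1, whose protein of 570 residues spans the membrane. The row of variant 2, which encodes a short form of 360 residues that is known to be secreted, did not follow it. Nor did the rows of variants 3, 4 and 5 and of the predicted X1 and X2, which overlapped at ratios of 1.00 to 1.01. Across the 7 rows the ratio of the conditions ran from 0.874 for variant 1, the only lower row, to 1.12 for variant 2. Variant 2 had 95, 89 and 81 counts with IL-4 + bryostatin 1 and 72, 77 and 77 counts with IL-4. As a percentage of the variant 1 count it was 31.8%, 35.6% and 34.8% with IL-4 + bryostatin 1, against 27.0%, 25.6% and 27.3% with IL-4. The percentage was higher in every sample with bryostatin 1 than in any without it, averaging 34.0% ± 2.01 and 26.6% ± 0.913 (SD, n = 3 each). An exact permutation test gave a two-sided p of 0.1, the smallest that 3 samples against 3 allow. As for Il18r1, rows share reads, so these percentages are not shares of molecules. The log2 fold change of the gene was 0.15 when the row with the lowest mean count, that of variant 2, was used, and it was not called.

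**Figure D2:**
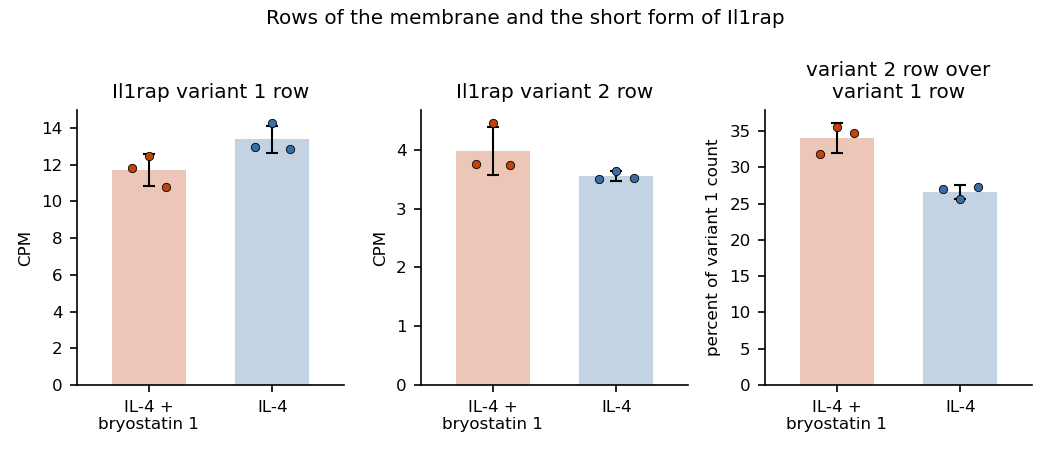
Il1rap counted on the row of variant 1 (left, CPM), on the row of variant 2 (middle, CPM), and variant 2 as a percentage of variant 1 (right), with a point for each sample, bars at the mean and error bars of 1 SD (n = 3). Variant 1 is lower and the percentage is higher in all samples with bryostatin 1 than in all IL-4 samples, at 31.8% to 35.6% against 25.6% to 27.3%.

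Sigirr, a receptor with a single immunoglobulin domain that restrains signalling by IL-1 and Toll-like receptors, is expressed by many cell types. It had 744, 554 and 592 counts with IL-4 + bryostatin 1, against 411, 327 and 375 counts with IL-4. In CPM these were 29.4, 27.7 and 27.4 with IL-4 + bryostatin 1 and 20.0, 15.5 and 17.1 with IL-4, with no overlap. Sigirr rose 1.61-fold (log2 fold change 0.69, standard error 0.08, adjusted p = 7.7e-07 in edgeR's quasi-likelihood test). Its 10 rows gave ratios from 1.57 to 1.61.

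Levels of different genes were set side by side as CPM per kilobase of a curated transcript, with lengths from GENCODE M21 for the same accession, in some cases an older version of it. With IL-4 + bryostatin 1 the order of these levels was Il1r2 (20.0 ± 3.79), Sigirr (14.0 ± 0.567), Il18rap (3.08 ± 0.250), Il1rap (2.59 ± 0.192), Il18 (2.44 ± 0.483) and Il18r1 (2.12 ± 0.265), each as mean and SD of 3 samples. In that order Il1rap overlapped Il18 and Il18 overlapped Il18r1, and the other neighbours did not overlap. With IL-4 the order of levels was Sigirr (8.72 ± 1.16), Il1rap (2.96 ± 0.169), Il18 (1.98 ± 0.489), Il1r2 (1.23 ± 0.243), Il18r1 (0.181 ± 0.0510) and Il18rap (0.0616 ± 0.0439). Here these neighbours did not overlap, except that Il18rap overlapped Il1r1 below it. Il18bp has no place in these orders, since its main transcript X2 has no length there and variant 1 holds few of its counts. Il1rl1 and Il1r1 had less than 0.1 CPM per kilobase in every sample and overlapped each other in both conditions. Among the members placed, Il18rap thus came after Il1r2 and Sigirr with bryostatin 1, and without it below all others that passed the filter.

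The receptor genes of chromosome 1 lie side by side in the order Il1r2, Il1r1, Il1rl2, Il1rl1, Il18r1 and Il18rap, as RefSeq's GRCm38.p6 annotation gives it, and 5 of these 6 are family members described above. The largest fold differences in it were those of Il1r2 at one end and of Il18r1 and Il18rap at the other. Il1rl2, the IL-36 receptor in its middle, had 17, 27 and 25 counts with IL-4 + bryostatin 1, against 10, 10 and 4 counts with IL-4. It was higher (log2 fold change 1.44, standard error 0.38, adjusted p = 0.0032 in edgeR's quasi-likelihood test). The IL-4 sample with 4 counts did not reach the level of the filter, so Il1rl2 needed samples with bryostatin 1 to pass. Map4k4, a kinase gene next to Il1r2, was also higher, by a log2 fold change of 0.30 (adjusted p = 3.4e-06). On the Il18rap side Slc9a4 had 0 counts and Slc9a2 at most 1 count in every sample. Mfsd9, a transporter-like gene beyond them, had 23, 25 and 21 counts with IL-4 + bryostatin 1 and 24, 26 and 22 counts with IL-4, and was not called (log2 fold change -0.13, adjusted p = 0.665). The members outside the cluster, Il18bp and Sigirr on chromosome 7, Il18 on chromosome 9 and Il1rap on chromosome 16, had log2 fold changes from -0.19 to 0.69.

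**Figure D3:**
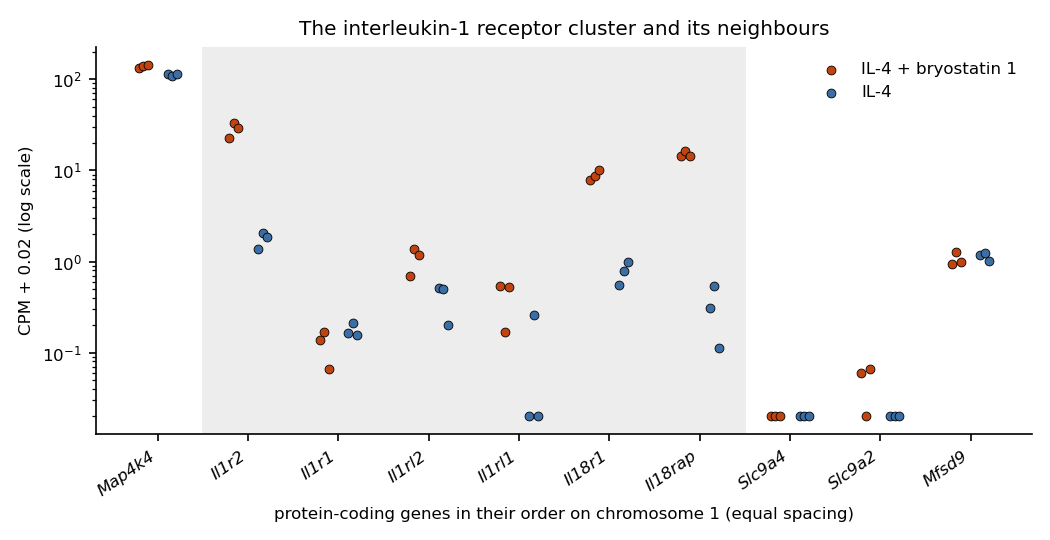
RNA level (CPM + 0.02, log scale) of the protein-coding genes of the receptor cluster on chromosome 1 (shaded) and their neighbours, drawn in gene order at equal spacing, with a point for each sample. Il1r2, Il18r1 and Il18rap are separated most between the conditions, at 28.5, 8.83 and 15.04 CPM on average with IL-4 + bryostatin 1 and 1.74, 0.751 and 0.301 CPM with IL-4, while Il1r1 and Mfsd9 overlap.

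The other genes of the pathway were taken as 5 lists with 45 genes, of which 27 were tested. Of these, 9 were higher, 11 were lower and 7 were not called, with a median log2 fold change of -0.06 beside 0.00 for all genes. Over all genes tested, 30.1% were higher and 28.0% lower, the shares to set beside these counts and those of each list below. Of the 9 other ligands and antagonists, Il36rn matched no row and none of the rest had enough counts for a test. Il33, the ligand of the receptor encoded by Il1rl1, had 12, 9 and 9 counts with IL-4 + bryostatin 1 and 1, 6 and 1 counts with IL-4. Il1rn, the IL-1 receptor antagonist, had 4, 2 and 3 counts with IL-4 + bryostatin 1 and 3, 2 and 3 counts with IL-4. Il1a and Il1b, the classical ligands of the receptor encoded by Il1r1, had at most 1 count in a sample, and Il1f6, Il1f8, Il1f9 and Il1f10 had 0 in all 6, each of which allows up to 3 counts. Ligand RNA other than Il18 was thus low in both conditions. Among these genes only Il33 separated the conditions, with every sample with bryostatin 1 above every IL-4 sample, on too few counts for a test.

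Of 16 genes that carry the signal from the receptors, 14 were tested, 3 were higher, 6 were lower and 5 were not called. Changes were small, and components of the same complex went both ways. Traf6, the ubiquitin ligase of the pathway, was at 0.48 on the log2 scale (standard error 0.04, adjusted p = 9.3e-09 in edgeR's quasi-likelihood test), and Tollip, an adaptor that dampens it, at 0.38 (standard error 0.04). The kinases Irak1 and Irak4 and the inhibitory relative Irak3 were lower, with log2 fold changes of -0.44, -0.38 and -0.45. Tab2, which links TRAF6 to the kinase TAK1, had the largest fall of the list (log2 fold change -0.52, standard error 0.04, adjusted p = 1.3e-09 in edgeR's quasi-likelihood test). Myd88, named after its value was seen because all signalling members depend on it, was at 39.7, 38.5 and 38.8 CPM with IL-4 + bryostatin 1 and 49.8, 45.5 and 48.5 CPM with IL-4, and was lower (log2 fold change -0.30, adjusted p = 5.2e-05).

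Among 12 genes of inflammasomes and ligand maturation, 10 were tested, 4 were higher, 4 were lower and 2 were not called. Casp1, which cuts the IL-18 precursor, was higher, at 0.42 on the log2 scale (standard error 0.06, adjusted p = 4.4e-06 in edgeR's quasi-likelihood test). Casp4, a sensor of intracellular lipopolysaccharide, and Aim2, a sensor of DNA, were higher, at 1.37 and 0.49. The sensor Nlrc4 was lower, at -1.38. Nlrp1a had a log2 fold change of 1.602 and Nlrp1b of -2.60, but these are close copies, Nlrp1b had at most 25 counts in a sample, and reads may be split between them. No bryostatin 1 sample of Nlrp1b reached the level of the filter, so Nlrp1b passed only through the IL-4 samples. Nlrp3, another sensor, had at most 4 counts in a sample.

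Of 5 genes that work with IL-18 in interferon-γ production, 2 were tested and went opposite ways. Il12rb1, a chain of the IL-12 receptor, had 351, 274 and 270 counts with IL-4 + bryostatin 1, against 158, 145 and 159 counts with IL-4, and was higher (log2 fold change 0.88, standard error 0.09, adjusted p = 1.5e-07 in edgeR's quasi-likelihood test). Stat4, the transcription factor activated by IL-12, had 356, 267 and 327 counts with IL-4 + bryostatin 1, against 833, 953 and 809 counts with IL-4, and was lower (log2 fold change -1.53, standard error 0.08, adjusted p = 9.6e-12). Both differences were without overlap. Ifng itself had 8, 5 and 13 counts with IL-4 + bryostatin 1 and 1, 1 and 0 counts with IL-4, and was not tested. Il12rb2, the other IL-12 receptor chain, had 5, 8 and 10 counts with IL-4 + bryostatin 1 and 3 counts in each sample with IL-4, and Tbx21, the T-bet gene, had 2, 6 and 4 counts with IL-4 + bryostatin 1 and 8, 1 and 1 counts with IL-4.

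**Figure D4:**
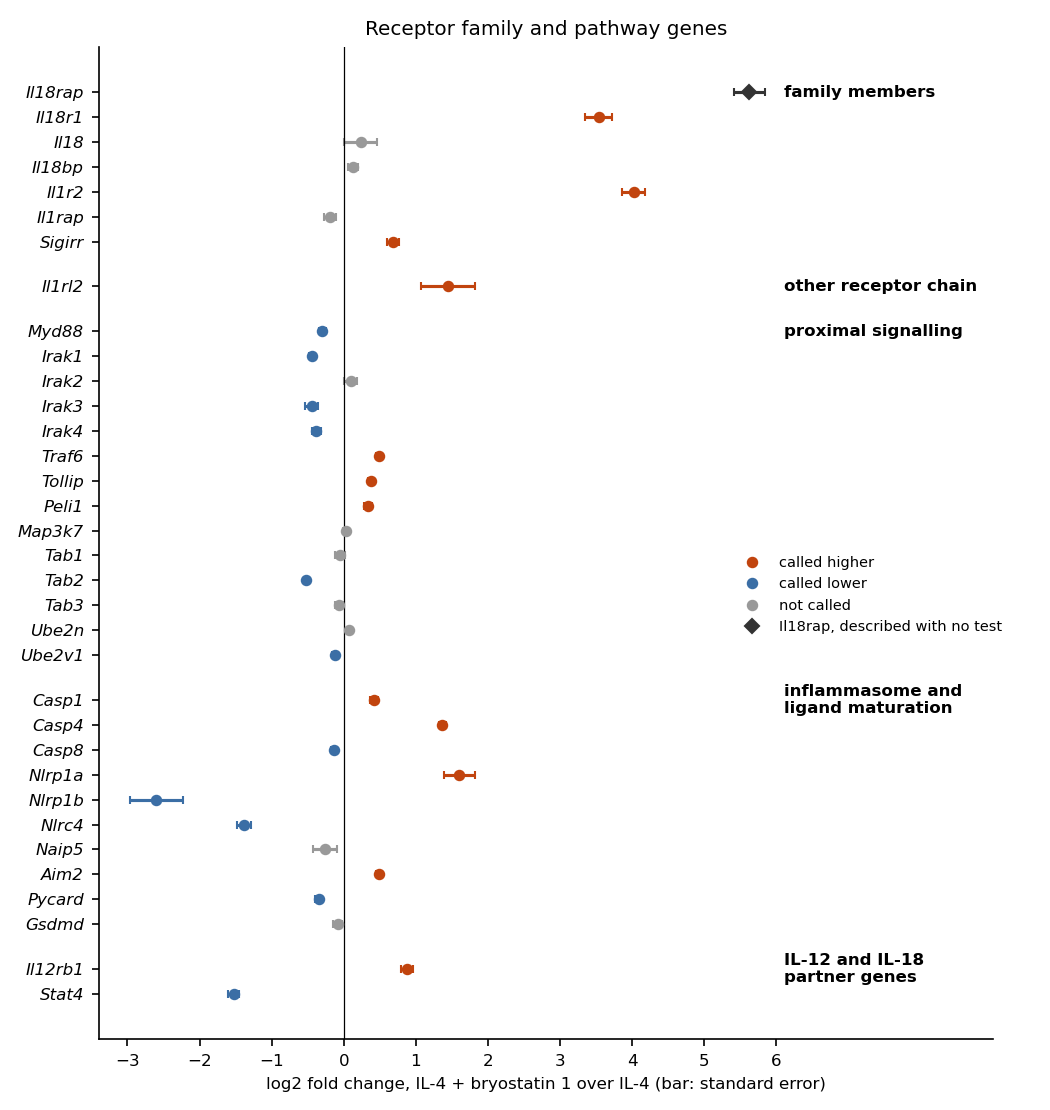
Log2 fold change (IL-4 + bryostatin 1 over IL-4) of the tested family genes and pathway genes, with bars of 1 standard error, coloured by the call of edgeR's quasi-likelihood test, and Il18rap as a diamond with no test. Il1r2 and Il18r1 stand at 4.02 and 3.54, while the 14 tested signalling genes lie between -0.52 and 0.48.

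Genes of other cell types were counted beside these results, since Il18rap, Il18r1 and Il1rl1 are typical of natural killer cells, T cells and innate lymphoid cells. The B cells had been purified from spleen with a B cell isolation kit, a step meant to leave other cells behind. The 8 B cell markers were all well counted, summing to 5042 to 5360 CPM with IL-4 + bryostatin 1 and 5952 to 6210 CPM with IL-4, with 2 genes higher and 5 lower. Over all genes tested, 30.1% were higher and 28.0% lower. Since single genes carried most of several sums, each sum was also taken without the most counted gene of its list, a choice made after the values were seen.
The 8 natural killer cell markers summed to 3.90 to 5.18 CPM with IL-4 + bryostatin 1 and 3.83 to 5.39 CPM with IL-4, and Prf1, the most counted gene, was lower. Without Prf1 the list had 71, 34 and 61 counts with IL-4 + bryostatin 1 and 13, 13 and 14 counts with IL-4, with no overlap, as for Il18rap. In 5 of the 8 genes, Gzma, Klrd1, Klrk1, Nkg7 and Eomes, all samples with bryostatin 1 lay above all without it. Of all genes tested, 63.5% did not overlap, counting both directions, but this share covers only genes that passed the filter on low counts. Of these 5 genes only Gzma was tested, and it was higher (31, 15 and 44 counts with IL-4 + bryostatin 1, against 5, 6 and 3 counts with IL-4). No IL-4 sample of Gzma reached the level of the filter, so it passed only through the samples with bryostatin 1. Ncr1, the defining receptor, had 2, 0 and 0 counts with IL-4 + bryostatin 1 and 0, 0 and 1 counts with IL-4. Klrb1c had 7, 3 and 3 counts with IL-4 + bryostatin 1 and 3, 2 and 6 counts with IL-4, and overlapped.
The 8 T cell markers summed to 74.0 to 84.4 CPM with IL-4 + bryostatin 1 and 37.2 to 41.0 CPM with IL-4, mostly Lck, which was higher. Without Lck they had 90, 49 and 56 counts with IL-4 + bryostatin 1 and 39, 35 and 40 counts with IL-4. Trac, the constant gene of the T cell receptor α chain, was also higher, with 48, 30 and 22 counts with IL-4 + bryostatin 1, against 17, 20 and 10 counts with IL-4 (log2 fold change 1.00, adjusted p = 0.0081 in edgeR's quasi-likelihood test). The IL-4 sample of Trac with 10 counts lay just below the level of the filter, so Trac needed samples with bryostatin 1 to pass. Cd28 had 22, 9 and 17 counts with IL-4 + bryostatin 1 and 19, 12 and 24 counts with IL-4. It overlapped and was not called (log2 fold change -0.27, adjusted p = 0.488 in edgeR's quasi-likelihood test). Cd3d and Cd8a, with at most 6 counts in a sample, lay above all IL-4 samples in every sample with bryostatin 1, and Cd3e, Cd3g and Cd4 overlapped.
The 8 markers of group 2 innate lymphoid cells summed to 2.73 to 3.55 CPM with IL-4 + bryostatin 1 and 0.389 to 0.994 CPM with IL-4, mostly Klrg1 and Rora, which were both higher. Without Klrg1 they had 22, 20 and 15 counts with IL-4 + bryostatin 1 and 5, 8 and 7 counts with IL-4, and Il13, Areg and Il17rb had 0 counts in the bryostatin 1 samples. No IL-4 sample of Rora reached the level of the filter, so Rora passed only through the samples with bryostatin 1. Klrg1 had 3 counts in IL-4 replicate 1, below that level, and also needed samples with bryostatin 1 to pass.
The 9 mast cell and basophil markers summed to 21, 30 and 23 counts with IL-4 + bryostatin 1 and 41, 50 and 43 counts with IL-4, a difference carried by Kit, which was lower. Without Kit they had 11, 17 and 17 counts with IL-4 + bryostatin 1 and 7, 17 and 6 counts with IL-4. Kit had 10, 13 and 6 counts with IL-4 + bryostatin 1. The samples with 10 and 6 lay below the level of the filter, so Kit passed through the IL-4 samples. Cpa3 had 2, 3 and 7 counts with IL-4 + bryostatin 1 and 0 in each IL-4 sample, while Fcer1a and Ms4a2 were at 0 in the bryostatin 1 samples.
The 9 myeloid markers summed to 22.6 to 25.7 CPM with IL-4 + bryostatin 1 and 5.53 to 8.47 CPM with IL-4, mostly Adgre1, which was higher, and without Adgre1 they overlapped, with 113, 79 and 79 counts with IL-4 + bryostatin 1 and 102, 96 and 60 counts with IL-4. S100a8 and S100a9 were at 0 in the bryostatin 1 samples. The 5 dendritic cell markers summed to 38.7 to 39.7 CPM with IL-4 + bryostatin 1 and 15.8 to 17.0 CPM with IL-4, mostly Zbtb46, and without it to 47, 34 and 37 counts with IL-4 + bryostatin 1 and 53, 70 and 80 counts with IL-4. Of the 4 plasma cell markers, Sdc1, Jchain and Prdm1 were higher, with log2 fold changes of 1.03, 1.28 and 1.68, and Xbp1 was lower, at -0.76. The 2 red blood cell markers had at most 5 counts in a sample. The part of these cell types in the receptor results was not tested. In bulk samples a change in the number of cells of a type and a change in RNA per cell cannot be told apart.

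**Figure D5:**
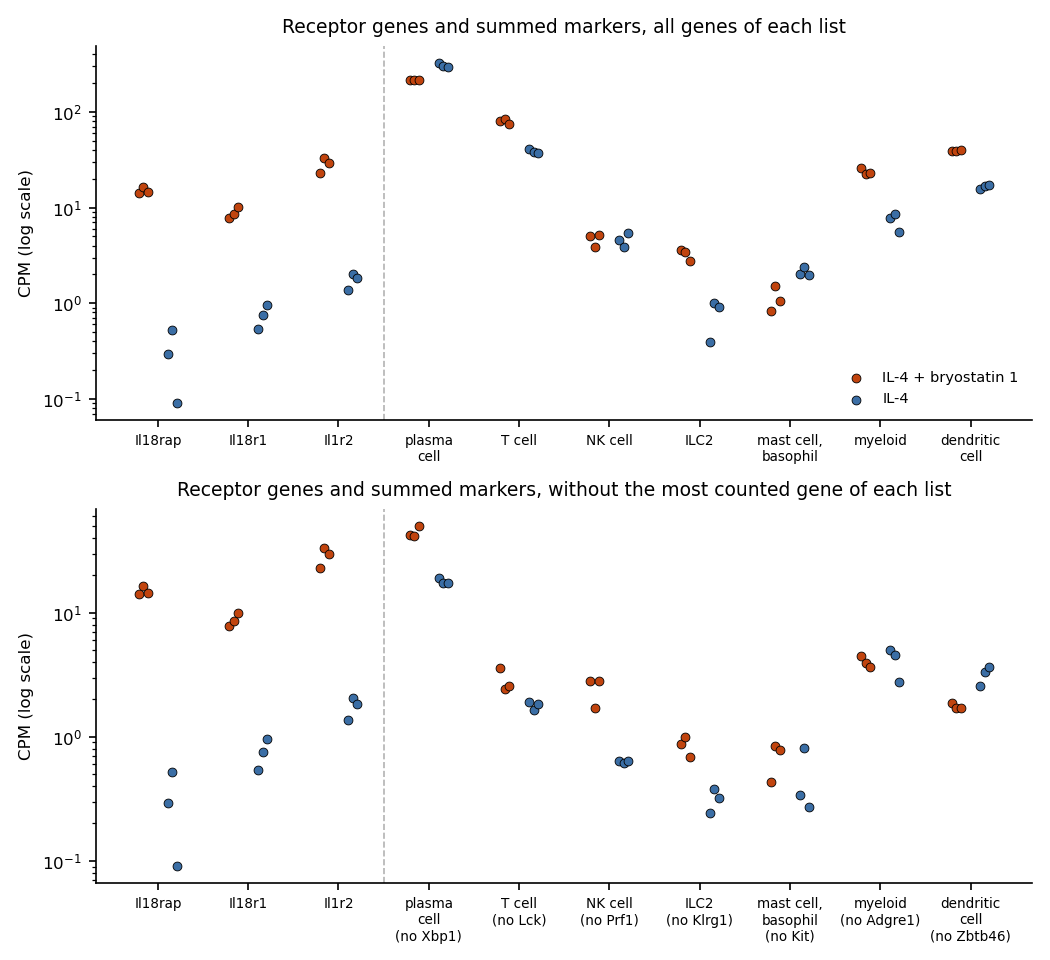
RNA level (CPM, log scale) of Il18rap, Il18r1 and Il1r2 (left of the dashed line) and summed level of marker lists of other cell types (right), with a point for each sample, over all genes of a list (top) and without its most counted gene (bottom). The natural killer cell sum overlaps between the conditions with Prf1 and separates without it, the mast cell and basophil sum and the myeloid sum separate and then overlap once Kit and Adgre1 are left out, and the dendritic cell and plasma cell sums change direction without Zbtb46 and Xbp1.

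The genes with the pattern most like that of Il18rap were found by Pearson's r of log2(CPM + 0.5) over the 6 samples among 9554 genes. The nonagouti gene, a, came first (r = 0.9998), with 471, 435 and 430 counts with IL-4 + bryostatin 1 and 23, 30 and 17 counts with IL-4. It was followed by the cell cycle inhibitor Cdkn1a (r = 0.9997), the lipid kinase Pip5k1a (r = 0.9996), the protein kinase Mapkapk3 (r = 0.9996) and the RNA-binding protein gene Carhsp1 (r = 0.9993). In all, 276 genes had an r above 0.99, since over 6 samples in 2 groups any gene that separates the groups evenly reaches a high value, and the samples share their libraries and depth. The sizes of the differences were unlike, with log2 fold changes of 4.18 for a, 2.83 for Cdkn1a and 0.63 for Pip5k1a.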

How the data were processed

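Bulk RNA of 6 samples of cultured mouse B cells, 3 with IL-4 + bryostatin 1 and 3 with IL-4, was analysed from the deposited table. Per the authors, cutadapt and sickle trimmed the reads, HISAT2 aligned them, SAMtools sorted the alignments and featureCounts counted. The sources used here name no versions, genome build, annotation or strand setting. The deposited values are raw counts, as whole numbers, for 139023 RefSeq transcript rows with 46316 gene symbols, and the authors' columns of fold change, p-value and q-value were not used. The treatment of reads shared by several rows is likewise not stated there. The design had assumed counts per gene, so each gene was taken as its row with the highest mean count.

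Genes were kept by filterByExpr of edgeR 4.0.16 in R 4.3.3 (minimum count 10, minimum total 15). DEGES scaling, which the study names, was written anew with TMM factors, an exact test and removal at a false discovery rate of 0.1 or at least a share of 0.05 of the genes, in 3 rounds. The quasi-likelihood F test had no covariate and 4 residual degrees of freedom, Benjamini-Hochberg adjustment ran over all 13863 genes, and the standard error is the size of the log2 fold change over the square root of F. The code was tested on simulated data. Samples of a group differed by more than sampling noise (chi-square per gene 2.29 to 4.80), so none was counted as a copy.

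The alternatives were TMM, DESeq2 1.42.0 size factors, total counts, DESeq2's test, no filter, at least 10 counts in each sample, the replicate block, each sample left out, summed rows, the row with the lowest mean count and, chosen after seeing the data, the highest curated row. The genes named are the 9 members, up to 6 called genes of each pathway list with the largest change, untested list genes with their counts, and the 5 genes most like Il18rap with a mean of at least 5 CPM. Genome neighbours, genes overlapping a member, marker genes and Myd88 were named outside this rule, after their values were seen. The members and lists were chosen with earlier results of these data known. Il36rn, a listed antagonist, matched no row and is not analysed here. Promoter windows and gene order came from RefSeq's GRCm38.p6 tables and were not used as coordinates of the counts. Intervals and floors cover counting error only. Tables and figures used Python 3.11.15, numpy 2.4.6, pandas 2.3.3, scipy 1.17.1 and matplotlib 3.10.9.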

Additional observations from a re-analysis of the deposited data

How the results depend on the processing

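Il18r1, Il1r2 and Sigirr kept their direction and call under all 16 alternatives, and Il18rap its direction under the 15 that kept it. Il1rap, at -0.19 and not called, was called lower with TMM factors (log2 fold change -0.20, adjusted p = 0.0436), DESeq2 size factors (-0.20, adjusted p = 0.0417), and the highest curated row (-0.21, adjusted p = 0.0354), all from edgeR. With samples left out in turn, it lay between -0.24 and -0.14 and was called without bryostatin 1 replicate 2 (adjusted p = 0.036), IL-4 replicate 1 (adjusted p = 0.0494) or IL-4 replicate 3 (adjusted p = 0.0475). With samples left out, Il18bp lay between 0.086 and 0.20 and was called only without bryostatin 1 replicate 2. Besides Il18rap, the members called higher then numbered 3 to 5, since Il1rl1 passed the filter through the bryostatin 1 samples and was called without bryostatin 1 replicate 2, its low sample, or IL-4 replicate 2, its only IL-4 sample above 0, and not without IL-4 replicate 1 or 3 (log2 fold change 1.69 to 6.15), and those called lower 0 to 1. In the settings named for Il1rap, 1 member was called lower. Il18bp was at -0.23 with the row of the lowest mean count and -0.16 with the highest curated row, and not called in either. Whether the replicate numbers pair the samples is not stated in the sources used here. The correlation of deviations was 0.142, 0.0522 and 0.0442 for equal numbers and -0.0908 to 0.0456 for unequal ones. These values overlap narrowly, so they do not settle it. A replicate block gave 4273 higher and 4020 lower genes in all, Il1rap was called (-0.19, adjusted p = 0.0318), so that 1 member was lower, and no other member's call changed. Of 429 values of 27 pathway genes, 422 kept their call, Ube2v1 lost it 4 times, and Ube2n, Gsdmd and Naip5 gained it once each. The cause of these changes was not tested. Genes with few counts, Il1r1, Il1rl1 and most ligands, are limited by depth.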
